A study of Rattus norvegicus with 12 samples.

Results

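The M/M (monocyte/macrophage) cytokine mixture was compared with the Th2 mixture in rat mixed glial cultures, on 6 of the 12 Affymetrix rat arrays of the series. These were the 3 arrays of M/M-treated and the 3 of Th2-treated cultures, each M/M array paired with the Th2 array of the same experiment. Cultures were prepared from newborn rat brain, kept in a defined medium that held 2% fetal bovine serum, and treated for 6 hours. Per the labels, the M/M mixture held TNF-a, IL1a, IL1b and IL-12p40 of the rat, and the Th2 mixture held rat IL-5, IL-10 and G-CSF with porcine TGF-b1, each at 10 ng/ml, whereas the methods add IL-6 to M/M and IL-4 to Th2. Every experiment also had a culture with Th1 cytokines (g-CSF, interferon-g, IL-2 and TNF-a at 10 ng/ml) and a control culture in the same medium without added cytokines. The cultures hold astrocytes, oligodendrocytes, microglia and glial precursors together, so fewer cells of a type and less RNA per cell cannot be told apart in these signals.

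IL-1 and TNF signal through receptors that free the transcription factor NF-kappaB from its inhibitor in the cytoplasm, and NF-kappaB then turns on genes of chemokines, cytokines and adhesion molecules. The Th2 mixture works by other routes: IL-10 signals through STAT3 and is known for restraining inflammatory genes in macrophages and microglia, and TGF-beta signals through Smad proteins. Interferon-gamma, which is in the Th1 mixture only, is known for raising the genes of antigen presentation.

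The arrays of experiment 3 stood apart, and genes that mark the mixtures were high on other labels there. Cd74, the MHC class II invariant chain that interferon-gamma induces, had a signal (dChip units, linear) of 989 and 344 on the Th1 arrays of experiments 1 and 2, whereas in experiment 3 it was 1379.7 on the array labelled M/M, 11 on that labelled Th2 and 3.7 on that labelled Th1. The same held for Irf1, Tap1 and Psmb9, each highest with Th1 in experiments 1 and 2 and on the array labelled M/M in experiment 3. Ccl20, Il1b, Cxcl2, Lcn2, Ccl3, Il1a, Cxcl6 and Mmp3 were each highest with M/M in experiments 1 and 2, but on the array labelled Th2 in experiment 3.

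**Figure D1:**
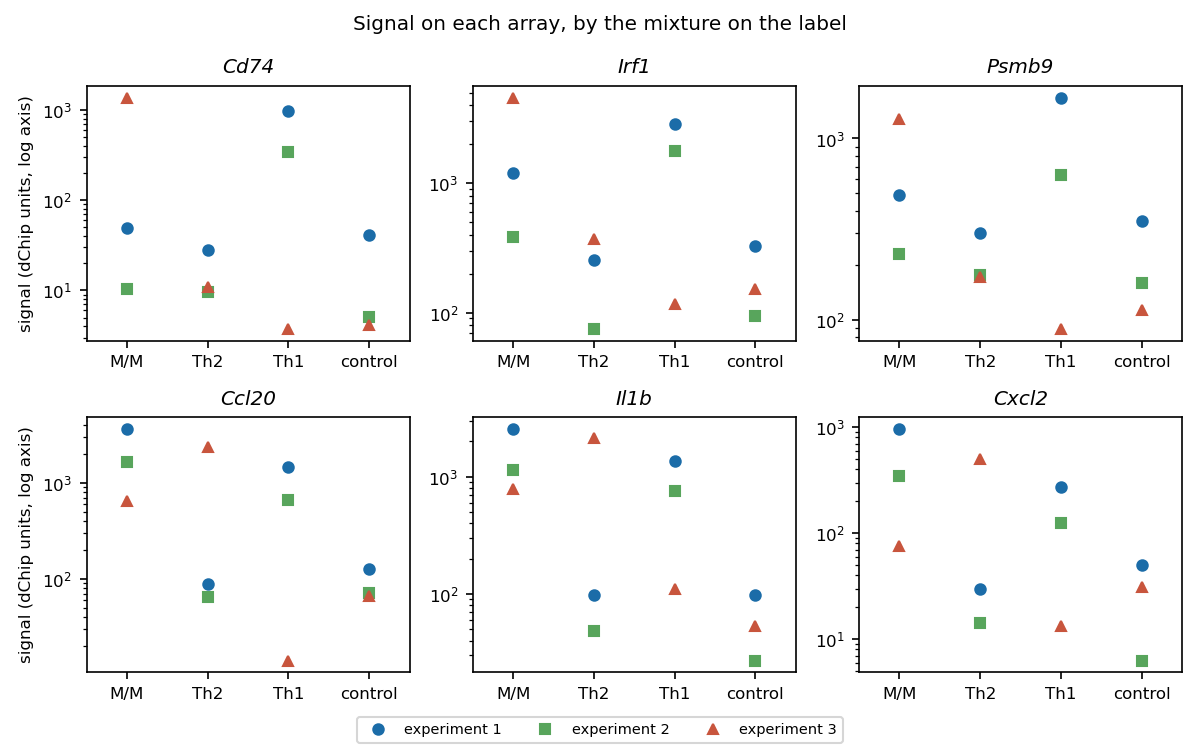
Signal (log axis, dChip units) of 6 genes (the brightest probe set of each) on the 12 arrays, grouped by the mixture on the label, 1 point an array with colour and shape for the experiment. In experiment 3 (triangles) Cd74, Irf1 and Psmb9 were highest on the array labelled M/M, and Ccl20, Il1b and Cxcl2 on the array labelled Th2.

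Over the 4370 probe sets in the upper signal range (mean log2 signal at or above the median), the log2 ratios of M/M over Th2 correlated between pairs 1 and 2 with r = 0.75, between pairs 1 and 3 with r = 0.03 and between pairs 2 and 3 with r = -0.01. These are descriptions across probe sets, which are not independent, and the pairs share no array. The ratio of pair 3 correlated with the mean Th1 over M/M ratio of experiments 1 and 2 with r = 0.40, and with their mean Th1 over Th2 ratio with r = 0.27. Within experiment 3, the ratio of the array labelled Th2 over that labelled Th1 correlated with the M/M over Th2 ratio of experiments 1 and 2 with r = 0.57, and that of the array labelled M/M over that labelled Th1 with r = 0.51. Both ratios within experiment 3 used its array labelled Th1, so they are not separate observations. Over all 8740 probe sets, these correlations were, in the same order, 0.15, 0.16, 0.20 and 0.22. These contrasts were chosen after the data had been seen. The arrays were kept in the groups of their labels, the reason for the difference was not tested, and the counts of calls are given with experiment 3 and without it. Experiment 3 was also recorded otherwise, with 1 decimal and 167 to 403 signals below 1 per array, against 0 to 3 in experiments 1 and 2. The median log2 ratio over all 8740 probe sets was -0.0018 in pair 1, -0.015 in pair 2 and 0.44 in pair 3, so a ratio in pair 3 is read against 0.44. The 6 arrays had median signals from 29.1 to 60.9.

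**Figure D2:**
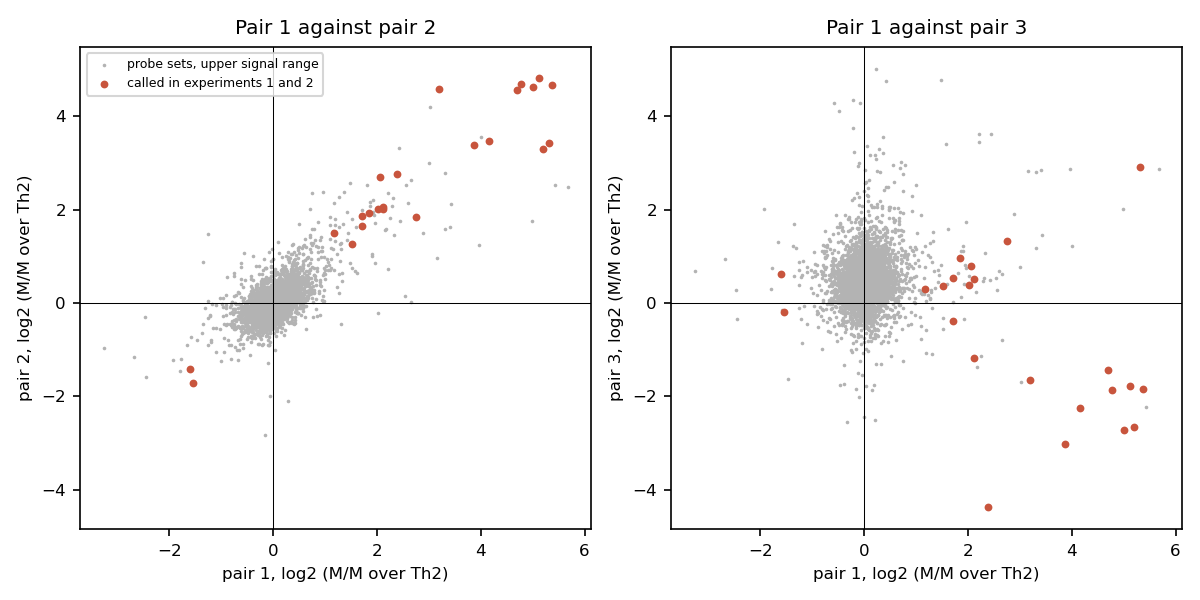
Log2 ratio of M/M over Th2 in pair 1 (x axis) against pair 2 (left) and pair 3 (right), 1 point a probe set of the upper signal range, with those called in experiments 1 and 2 in colour. The coloured points lie along the diagonal on the left, where they were selected, while on the right 12 of the 21 called higher fall below 0.

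With all 3 experiments, no probe set passed the threshold between M/M and Th2 cultures. limma with experiment as a block called 0 of 8740 higher (0 percent) and 0 lower (0 percent) at an adjusted p of 0.05, the smallest being 0.997. At an unadjusted p under 0.05 there were 347 probe sets, 283 higher and 64 lower with M/M. The screening criteria of the methods (over 2-fold, analysis of variance p under 0.2) were set for each mixture against control. Applied here to the log2 signals of M/M against Th2, without pairing, they gave 167 higher and 75 lower. In the fit of experiments 1 and 2 alone, 21 probe sets were called higher with M/M (0.24 percent of those tested) and 2 lower (0.0229 percent), with 487 at an unadjusted p under 0.05. Each of these called probe sets had an adjusted p of 0.997 in the fit of all 3 experiments. The calls rest on 2 pairs: without the replicate block limma called 0 either way, and leaving out an M/M or Th2 array gave 0 to 2. Fitting experiments 1 and 2 alone was decided after the data had been seen, so the p values of that fit are read as description. Because nothing says that the cultures of an experiment came from separate animals, the p values measure the spread between these cultures only.

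Over 2-fold ratios the same way in pairs 1 and 2 were found for 156 probe sets higher (1.78 percent) and 80 lower (0.915 percent). In the upper signal range these were 79 higher and 8 lower. Of the 79, 55 were above 0 in pair 3 and 24 below, with 19 over 2-fold higher and 17 over 2-fold lower there. Of the 4370 probe sets of that range, 504 were over 2-fold higher and 40 over 2-fold lower in pair 3, and 3699 of all 4736 genes with a symbol were above 0, so the 55 are read against that shift. All 3 pairs passed 2-fold for 48 probe sets higher (0.549 percent) and 8 lower (0.0915 percent), and 25 and 16 did once the arrays had been set to a common median.

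Among the genes called, the largest differences of experiments 1 and 2 were in IL-1 itself and in chemokines that draw neutrophils and lymphocytes. Il1b, which encodes IL-1beta, had a signal of 2105, 1075 and 479 with M/M cytokines, 60.8, 38.2 and 1648 with Th2 cytokines and 78.4, 36.8 and 16.4 in control cultures. Its M/M and Th2 arrays were far apart in experiments 1 and 2, and the Th2 array was the higher one in experiment 3, so the groups overlapped. The fold of M/M over Th2 was 34.6 and 28.2 in pairs 1 and 2 and 0.29 in pair 3 (log2 difference 4.96 ± 0.19 (SE), adjusted p = 0.00146 in experiments 1 and 2, log2 difference 2.72 ± 1.27 (SE), adjusted p = 0.997 in all 3, limma). The other 2 probe sets of Il1b were also called in experiments 1 and 2. Il1a, which encodes IL-1alpha, gave 549.9, 277 and 59.6 with M/M cytokines and 37.5, 26.6 and 480.2 with Th2 cytokines. It was 14.7 and 10.4 times as high with M/M in pairs 1 and 2 and 0.124 times in pair 3, with limma's adjusted p = 0.0158 for experiments 1 and 2. Of 25 cytokine genes measured (32 listed), these 2 were called, and Csf1 and Csf3 were also over 2-fold higher in both pairs 1 and 2. Of all 4736 genes, 13 were called higher and 74 (1.56 percent) were over 2-fold higher in both pairs. Csf3, which encodes G-CSF, a component of the Th2 mixture, had 208, 128 and 48.8 with M/M cytokines, 46, 42.3 and 127 with Th2 cytokines and 38.5, 44 and 42.7 in control cultures. IL-1 and G-CSF were added as proteins, and the arrays measure transcripts.

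Ccl20, a chemokine that draws cells bearing the receptor CCR6, had a signal of 3642, 1652 and 657 with M/M cytokines, 88, 64.9 and 2345 with Th2 cytokines and 129, 71.3 and 66.7 in control cultures. The Th2 arrays of experiments 1 and 2 lay near the control arrays, while that of experiment 3 lay far above its control. Ccl20 was 41.4 and 25.5 times as high with M/M in pairs 1 and 2 and 0.28 times in pair 3 (limma for experiments 1 and 2, log2 difference 5.02 ± 0.21 (SE), adjusted p = 0.00146). Cxcl2, a neutrophil chemokine, had 957, 346 and 76.3 with M/M cytokines, 29.7, 14.1 and 499 with Th2 cytokines and 50.6, 6.25 and 31.2 in control cultures. Cxcl6, of the same family, had 1449.9, 397 and 98 with M/M cytokines and 39.4, 40.2 and 619 with Th2 cytokines. Both were high with M/M in pairs 1 and 2, by 32.2 and 24.5 times and 36.8 and 9.88 times, and low in pair 3, at 0.153 and 0.158 times (limma's adjusted p = 0.0359 for each in experiments 1 and 2).

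Cxcl10, a T cell chemokine that interferons also induce, kept its direction in the 3 pairs. Its signal was 840.1, 207 and 5626 with M/M cytokines, 21, 19.5 and 744 with Th2 cytokines and 31.9, 20.9 and 181 in control cultures. The Th1 arrays of experiments 1 and 2 were above M/M, at 3640 and 1874, whereas the array labelled Th1 in experiment 3 had 23.8. Each M/M array exceeded the Th2 array of its experiment, although the Th2 array of experiment 3 was above the M/M array of experiment 2. The ratios were 39.9 and 10.7 in pairs 1 and 2 and 7.56 in pair 3 (limma, log2 difference 4.37 ± 0.44 (SE), adjusted p = 0.0328 in experiments 1 and 2, and log2 difference 3.88 ± 1.79 (SE), adjusted p = 0.997 in all 3). Cx3cl1, known as fractalkine, had 1299, 473 and 1652 with M/M cytokines and 192, 132 and 660.2 with Th2 cytokines. It was 6.76 and 3.57 times as high in pairs 1 and 2 and 2.5 times in pair 3, with limma's adjusted p = 0.0445 for experiments 1 and 2. On the arrays labelled Th1, Cx3cl1 had 1279, 542 and 106.

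Of the 25 chemokines listed, 14 were measured, each by its brightest probe set, and 5 were called higher in experiments 1 and 2, against 13 of all 4736 genes. The 14 chemokines had median log2 ratios of 2.89, 1.92 and -0.78 in pairs 1, 2 and 3, while those of all 4736 genes were -0.02, -0.02 and 0.42. Over 2-fold higher in both pairs 1 and 2 were 8 of the 14, against 74 of all 4736 genes (1.56 percent). In pair 3, 4 of the 14 were over 2-fold higher and 7 over 2-fold lower, against 783 and 251 of all 4736 genes. Ccl5, which draws T cells and monocytes, had 736, 71.2 and 3291 with M/M cytokines and 14.4, 12.8 and 451 with Th2 cytokines. Ccl3, a macrophage inflammatory protein, had 914, 524 and 686 with M/M cytokines and 113, 28.8 and 2226 with Th2 cytokines. Neither passed the test, and Ccl5 was higher with M/M in every pair while Ccl3 was 0.308 times in pair 3. On the arrays labelled Th1, Ccl5 had 1960, 298 and 2.1. Ccl2, the monocyte chemokine, was bright in both mixtures, with 5496, 4393 and 6309 with M/M cytokines, 3356, 1094 and 5748 with Th2 cytokines and 898, 583 and 986 in control cultures.

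**Figure D3:**
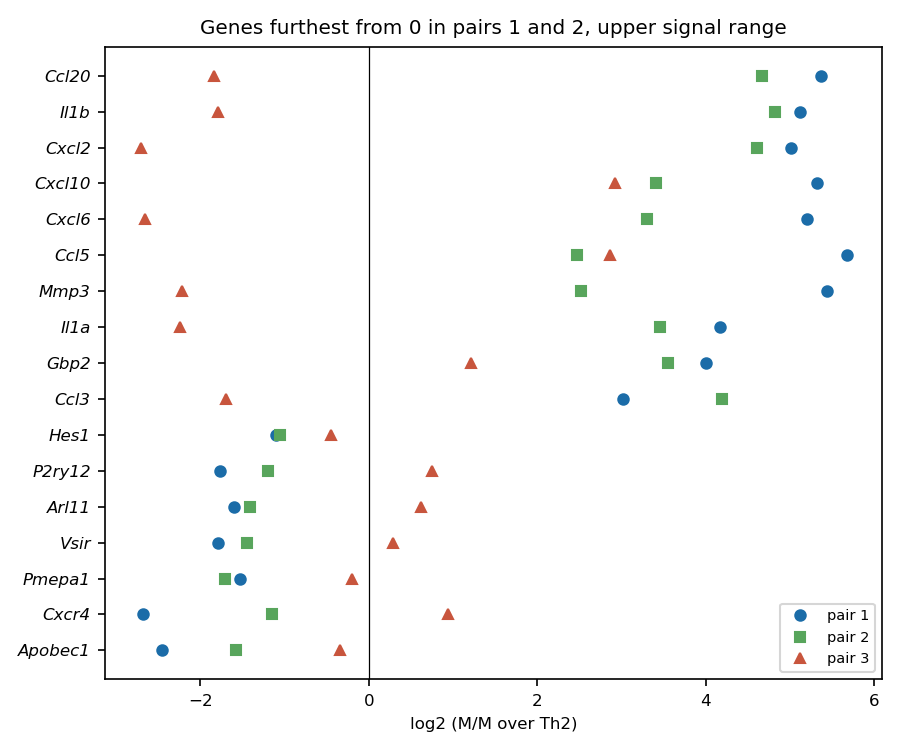
Log2 ratio of M/M over Th2 in each pair (x axis) for the 10 genes furthest above 0 and the 7 furthest below 0 in pairs 1 and 2, 1 point a pair, among probe sets of the upper signal range with 1 gene symbol that passed 2-fold in both. Of the 10 upper genes, 3 (Cxcl10, Ccl5 and Gbp2) are also above 0 in pair 3.

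The promoters of 4 genes called higher in experiments 1 and 2 are shown because they carry the kappaB consensus, the site type that NF-kappaB binds. Each is the 250 bases before and 50 after the start, from RefSeq on build GRCr8, 5′ to 3′ on the gene's strand, with matches in capitals to the kappaB consensus or, in Cxcl10, also to TTTC, any 2 bases and TTTC, a core of the interferon-stimulated element. Both strands were searched.
Ccl20 (chr9:91836909-91837208, plus strand): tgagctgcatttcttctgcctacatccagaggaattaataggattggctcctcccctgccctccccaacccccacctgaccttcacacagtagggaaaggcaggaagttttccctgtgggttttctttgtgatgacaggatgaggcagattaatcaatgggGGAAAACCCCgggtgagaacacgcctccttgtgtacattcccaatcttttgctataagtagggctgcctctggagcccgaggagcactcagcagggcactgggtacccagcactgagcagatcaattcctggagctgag
Cxcl2 (chr14:17467206-17467505, minus strand): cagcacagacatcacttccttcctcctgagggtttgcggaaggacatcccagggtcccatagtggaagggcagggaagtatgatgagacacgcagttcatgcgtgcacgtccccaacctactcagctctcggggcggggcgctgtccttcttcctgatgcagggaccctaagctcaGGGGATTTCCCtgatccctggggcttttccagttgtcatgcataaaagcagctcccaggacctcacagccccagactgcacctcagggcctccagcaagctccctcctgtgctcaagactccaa
Cxcl10 (chr14:15988816-15989115, plus strand): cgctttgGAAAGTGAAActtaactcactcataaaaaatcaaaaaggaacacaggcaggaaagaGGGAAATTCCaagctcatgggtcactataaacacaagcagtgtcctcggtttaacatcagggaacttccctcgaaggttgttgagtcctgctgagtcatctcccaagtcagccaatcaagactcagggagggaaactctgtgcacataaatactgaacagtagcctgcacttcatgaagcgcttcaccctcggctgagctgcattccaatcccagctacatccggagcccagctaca
Nfkbia (chr6:78597023-78597322, minus strand): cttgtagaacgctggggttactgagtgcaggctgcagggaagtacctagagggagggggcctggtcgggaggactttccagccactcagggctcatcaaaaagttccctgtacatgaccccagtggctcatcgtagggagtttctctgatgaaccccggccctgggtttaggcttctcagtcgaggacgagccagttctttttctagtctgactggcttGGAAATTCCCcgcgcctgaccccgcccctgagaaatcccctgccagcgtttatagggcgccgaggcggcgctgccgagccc
The capitals in Cxcl2 are overlapping matches. Of the 13 genes called higher, 12 had a promoter in the table, and 7 of these 12 held the consensus (Ccl20, Cxcl2, Cxcl6, Cxcl10, Lcn2, Nfkbia and Sdc4) and 5 did not (Cx3cl1, Icam1, Il1a, Il1b and Sod2), against 5.00 percent of the 3879 promoters of genes on the array and 4.16 percent of all 27457. The looser form GGG, any 5 bases and CC, which was searched first and contains the consensus, was in 9 of the 12 and in 63.4 percent of the promoters of genes on the array. The interferon-stimulated core was in 1 of the 12 and in 3.12 percent of them. The consensus was chosen after the data had been seen, and so was the fit that gave the 12 genes, so these shares are description only. A match of letters is a description and not a bound site.

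Among 12 measured genes of the NF-kappaB pathway and its targets (of 26 listed), 3 were called higher with M/M in experiments 1 and 2, the pathway's own inhibitor among them. Of all 4736 genes, 13 were called higher. Nfkbia, which encodes the inhibitor IkappaBalpha and is itself an NF-kappaB target, had 1104, 613 and 664 with M/M cytokines, 254, 148 and 468 with Th2 cytokines and 288, 158 and 90.4 in control cultures. The fold was 4.35 and 4.14 in pairs 1 and 2 and 1.42 in pair 3, which is near that pair's general shift (limma, log2 difference 2.08 ± 0.13 (SE), adjusted p = 0.00733 in experiments 1 and 2). Icam1, an adhesion molecule for leukocytes, had 1962, 1192 and 3119.9 with M/M cytokines, 471, 184 and 1811 with Th2 cytokines and 410.1, 171 and 397 in control cultures. Sod2, the mitochondrial superoxide dismutase, had 2053, 1122 and 595 with M/M cytokines and 713, 465 and 461 with Th2 cytokines. Both were called in experiments 1 and 2 (limma's adjusted p = 0.0377 and 0.0328). The 12 genes had median log2 ratios of 1.23, 1.34 and 0.46, and 6 were over 2-fold higher in both pairs 1 and 2, against 1.56 percent of all genes. Nfkb1, the precursor of an NF-kappaB subunit, and Vcam1, another adhesion molecule, gave limma's adjusted p = 0.0709 and 0.0905 in experiments 1 and 2, and Vcam1 had 1343, 383 and 2513 with M/M cytokines and 135, 55.5 and 1108 with Th2 cytokines.

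Other genes called higher in experiments 1 and 2 were of acute phase, sterol and matrix biology. Lcn2, an iron-binding acute phase protein of astrocytes, had 929.9, 501 and 16.6 with M/M cytokines, 178, 74.2 and 343 with Th2 cytokines and 139, 80.4 and 20.7 in control cultures. It was 5.24 and 6.74 times as high with M/M in pairs 1 and 2, whereas in pair 3 it was 0.0484 times. Cyp7b1, an oxysterol hydroxylase, had 1274, 337 and 202 with M/M cytokines and 295, 83.2 and 460.0 with Th2 cytokines, 4.31 and 4.05 times in pairs 1 and 2 and 0.44 in pair 3. Sdc4, the heparan sulfate proteoglycan syndecan-4, had 2577, 1333 and 3302 with M/M cytokines, 787, 427 and 2295 with Th2 cytokines and 923, 328 and 735 in control cultures. It was higher with M/M in each of the 3 pairs, by 3.28, 3.12 and 1.44 times, the last near that pair's general shift (limma, log2 difference 1.68 ± 0.18 (SE), adjusted p = 0.0377 in experiments 1 and 2, and log2 difference 1.29 ± 0.33 (SE), adjusted p = 0.997 in all 3). A second probe set of Sdc4 was called too, while another, dim one had 13, 10 and 5.3 with M/M cytokines and 13.5, 12.1 and 7.8 with Th2 cytokines. Probe sets D11445exon#1-4_s_at and rc_AA799804_at, which carry no gene symbol here, were called higher as well.

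Matrix proteases and metabolic enzymes of inflammation had high ratios without passing the test. Mmp3 (stromelysin) had 972, 109 and 128 with M/M cytokines and 22.4, 19.1 and 596 with Th2 cytokines. Mmp13, a collagenase, had 335, 78.1 and 106 with M/M cytokines and 14.3, 9.81 and 479 with Th2 cytokines. Both ran against pairs 1 and 2 in pair 3, at 0.215 and 0.222 times (limma's adjusted p = 0.361 and 0.0507 in experiments 1 and 2). Gch1, the first enzyme of tetrahydrobiopterin synthesis, had 367, 175 and 346 with M/M cytokines and 60.2, 39.7 and 215 with Th2 cytokines, and each M/M array exceeded the Th2 array of its experiment. Of 20 proteases and inhibitors measured, 0 were called and 3 (Mmp3, Mmp9 and Mmp13) were over 2-fold higher in both pairs 1 and 2, against 1.56 percent of all genes. In pair 3, 1 of the 20 was over 2-fold higher and 6 over 2-fold lower, against 783 and 251 of all 4736 genes. Of 26 enzymes of nitric oxide, arginine, tetrahydrobiopterin and prostaglandin metabolism, 0 were called and 2 (Gch1 and Ass1) were over 2-fold higher in both pairs 1 and 2, against the same 1.56 percent. Plau, which encodes urokinase, was lower with M/M in each pair, at 0.633, 0.705 and 0.79 times.

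The 2 genes called lower with M/M in experiments 1 and 2 were Pmepa1 and Arl11. Pmepa1, a TGF-beta target that limits Smad signalling, had 984, 730.2 and 1389 with M/M cytokines, 2848, 2378 and 1595 with Th2 cytokines and 832, 810.3 and 932 in control cultures. The Th2 arrays were the high ones and the M/M arrays lay near control in experiments 1 and 2, while in experiment 3 both arrays were above control. The Th1 arrays of experiments 1 and 2 had 913 and 799, whereas the array labelled Th1 was the highest of experiment 3, at 3286. M/M was 0.345 and 0.307 times Th2 in pairs 1 and 2 and 0.871 times in pair 3 (limma, log2 difference -1.62 ± 0.13 (SE), adjusted p = 0.0158 in experiments 1 and 2, and log2 difference -1.15 ± 0.39 (SE), adjusted p = 0.997 in all 3). Arl11, a small GTPase of the ARF-like family, had 269.6, 263 and 193 with M/M cytokines, 819, 699 and 125 with Th2 cytokines and 750.0, 555 and 269.7 in control cultures. Here the Th2 arrays lay near control and the M/M arrays below in experiments 1 and 2, and the Th2 array was below both M/M and control in experiment 3. M/M was 0.329 and 0.376 times Th2 in pairs 1 and 2 and 1.54 in pair 3, with limma's adjusted p = 0.0388 for experiments 1 and 2.

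Others over 2-fold lower in both pairs 1 and 2 did not pass the test. P2ry12, the ADP receptor of resting microglia, had 48.8, 28.6 and 47 with M/M cytokines, 166, 65.4 and 28 with Th2 cytokines and 117, 21.1 and 46 in control cultures. Vsir, an immune checkpoint protein, had 98.3, 80.5 and 85 with M/M cytokines and 340.0, 219 and 69.4 with Th2 cytokines. Control cultures had 349, 173 and 148.5 for Vsir. Cxcr4, the receptor of CXCL12, had 24.4, 44.7 and 27.1 with M/M cytokines and 157, 99 and 14.1 with Th2 cytokines, and its other 2 probe sets gave 0.563 and 0.729, and 0.520 and 0.732 times in pairs 1 and 2. These 3 were higher on the array labelled M/M in experiment 3, although Vsir by less than that pair's general shift. Apobec1, an RNA-editing cytidine deaminase, had 133, 118 and 80.2 with M/M cytokines and 728, 350.1 and 102 with Th2 cytokines. Its control cultures had 814, 381 and 266, so both arrays of experiment 3 were below control. Hes1, a Notch target, had 116, 43.6 and 87.7 with M/M cytokines and 249, 90.8 and 119.9 with Th2 cytokines. Control cultures had 141, 60.8 and 97.4 for Hes1. Apobec1 and Hes1 were lower with M/M in all 3 pairs, but another probe set of Hes1 gave 0.777, 0.958 and 1.21 times. Of 29 genes of the TGF-beta response measured, a list that does not hold Pmepa1, 0 were called and 1 (Tgfb3) was over 2-fold lower in both pairs 1 and 2, with median log2 ratios of -0.06, 0.22 and 0.44. Of all 4736 genes, 31 were over 2-fold lower in both pairs.

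Of 13 interferon-inducible genes measured, 12 had ratios above 0 in pair 1, 12 in pair 2 and 13 in pair 3. Of all 4736 genes, 2224, 2192 and 3699 were above 0 in pairs 1, 2 and 3. Among the 13, 1 (Cxcl10) was called in experiments 1 and 2 and 6 were over 2-fold higher in both pairs 1 and 2. Of all 4736 genes, 13 were called higher and 1.56 percent were over 2-fold higher in both pairs. In pair 3 all 13 were over 2-fold higher, against 783 of all 4736 genes, and the median log2 ratios were 1.09, 1.40 and 2.81. Gbp2, a guanylate-binding protein, had 1557, 391 and 2109.9 with M/M cytokines and 97.5, 33.3 and 908 with Th2 cytokines. Mx1, an antiviral GTPase, had 294, 65.1 and 1608 with M/M cytokines and 27.7, 21 and 224 with Th2 cytokines. Irf1, a transcription factor of the interferon response, had 1188, 381 and 4575 with M/M cytokines and 256, 74.2 and 373 with Th2 cytokines. For Irf1 the array labelled M/M in experiment 3 was the highest of the 6. On the arrays labelled Th1, Gbp2 had 2603, 1281 and 35.4, Mx1 had 1895, 464 and 36.9, and Irf1 had 2850, 1761 and 116. All 3 genes were thus higher with Th1 than with M/M in experiments 1 and 2, but lower in experiment 3. Antigen presentation genes, each by its brightest probe set, had median log2 ratios of 0.43, 0.20 and 1.92. Of the 19, 15 were over 2-fold higher in pair 3 and 1 (Tap2) in both pairs 1 and 2. A less bright probe set of Tap1 was also over 2-fold higher in each pair, at 5.44, 3.35 and 12.3 times (limma's adjusted p = 0.0511 in experiments 1 and 2). Cd74 had 49, 10.5 and 1379.7 with M/M cytokines and 28, 9.49 and 11 with Th2 cytokines. Dimmer probe sets of Cd74 gave 2.22 and 3.49, and 4.11 and 2.31 times in pairs 1 and 2. Interferon-gamma was in neither of these 2 mixtures per the labels.

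**Figure D4:**
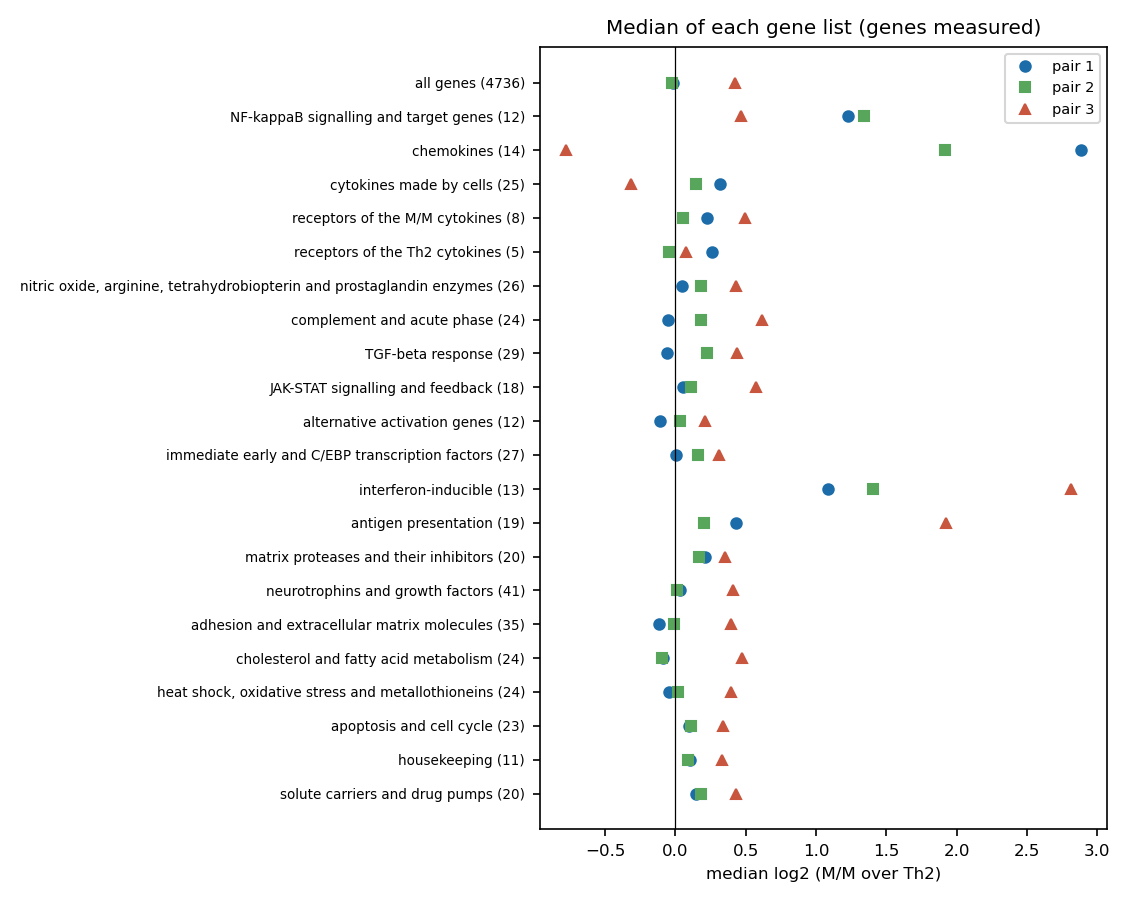
Median log2 ratio of M/M over Th2 in each pair (x axis) for all genes and 21 gene lists, with the number of genes measured in brackets. Chemokines had medians of 2.89 and 1.92 in pairs 1 and 2 and -0.78 in pair 3, whereas interferon-inducible genes had 2.81 in pair 3.

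None of the measured receptor genes of the added cytokines was called. For M/M, 8 of 10 listed genes were measured and 0 were called, where the list also holds Il1rl1, the IL-33 receptor, which is known to bind none of the added cytokines, and for Th2 5 of 13 and 0. The measured genes, all named below, hold no receptor of IL-10, G-CSF or IL-12 and no IL-5 receptor alpha chain, so nothing is said of these. Tnfrsf1a, the main TNF receptor, had 325, 281 and 511 with M/M cytokines, 293, 235 and 205 with Th2 cytokines and 307, 234 and 298 in control cultures. Il1r1, the signalling IL-1 receptor, was dim, with 11.8, 23.1 and 1.4 with M/M cytokines and 14, 17.4 and 2.4 with Th2 cytokines. Its partner Il1rap had 116, 114 and 38.9 with M/M cytokines and 94.3, 106 and 19.6 with Th2 cytokines, and the decoy receptor Il1r2 had 45, 38.4 and 56.6 with M/M cytokines and 36.3, 40.3 and 33.7 with Th2 cytokines. Among the other genes of the list, Il1rl1, Il6r, Il6st and Tnfrsf1b had ratios of M/M over Th2 from 0.538 to 1.55 in pairs 1 and 2. For the Th2 mixture, Il4r had 154, 126 and 142 with M/M cytokines and 121, 119.6 and 135 with Th2 cytokines and Csf2rb, the common beta chain used by the IL-5 receptor, had 347, 367 and 178 with M/M cytokines, 248, 257 and 78.7 with Th2 cytokines and 189, 86.7 and 54.7 in control cultures. Csf2rb was higher with M/M in each pair, by 1.4, 1.43 and 2.26 times, and Tgfbr1, Tgfbr3 and Acvrl1 of the TGF-beta family had ratios from 0.657 to 1.2 in pairs 1 and 2.

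Transcription factors that respond early had 3 of 27 measured genes over 2-fold higher in both pairs 1 and 2 (Fosl1, Cebpb and Cebpd), against 1.56 percent of all genes, and 0 called. Cebpb, a factor of inflammatory and acute phase genes, had 647, 400.0 and 743 with M/M cytokines and 265, 166 and 616 with Th2 cytokines. Complement and acute phase genes had 1 of 24 called (Lcn2), against 13 of all 4736 genes called higher. C3, the central complement component, was higher with M/M in each pair, with 1188, 259 and 559 with M/M cytokines and 603, 154 and 308 with Th2 cytokines. JAK-STAT genes (18 measured), alternative activation genes (12) and neurotrophins and growth factors (41) had 0 called and 0 over 2-fold higher in both pairs 1 and 2. Arg1, an enzyme of alternative activation, had 51.6, 16.7 and 4.7 with M/M cytokines, 133, 20.1 and 30.2 with Th2 cytokines and 19.5, 8.01 and 2.7 in control cultures. Its M/M arrays were below the Th2 arrays of the same experiment in each pair, with limma's adjusted p = 1 for experiments 1 and 2. Cholesterol and fatty acid genes (24), cell death and cycle genes (23) and housekeeping genes (11) also had 0 called, with medians in pairs 1 and 2 from -0.10 to 0.11. Heat shock, oxidative stress and metallothionein genes had 1 of 24 called (Sod2), and adhesion and matrix genes 1 of 35 (Sdc4), against the same 13 of 4736. Solute carriers and drug pumps had 0 of 20, where Abcb1b, a P-glycoprotein, had 549.9, 170.5 and 336 with M/M cytokines and 204, 44.1 and 206 with Th2 cytokines.

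Genes of the same sign in all 3 pairs, chosen by the smallest unadjusted p, all had limma's adjusted p = 0.997 over the 3 experiments. Besides Sdc4 those higher were Bbx, Ergic1, Gnb1, Rps24, Ywhae, Eef1a1, Acot7, Map4k4 and Sparc. Gnb1, a G protein beta subunit, had 1324, 721 and 367 with M/M cytokines, 378, 125 and 234 with Th2 cytokines and 1337, 97.7 and 239 in control cultures. A different probe set of Gnb1 had 523, 383 and 277 with M/M cytokines and 515, 313 and 174 with Th2 cytokines. Eef1a1, a translation elongation factor, had 633, 393 and 39.5 with M/M cytokines, 78.7, 49.2 and 23.3 with Th2 cytokines and 578, 28.8 and 52.2 in control cultures, while its brighter probe set had 4518, 3878 and 2535 with M/M cytokines and 3857, 3492 and 2010.5 with Th2 cytokines. For these 2 genes the control of experiment 1 lay near its M/M array, while that of experiment 2 lay below both, and the probe sets of a gene disagreed in size. Sparc likewise had ratios of 2.4, 1.16 and 2.44 on one probe set, and from 0.904 to 0.973 in pair 1 on the other 3. Those lower were Hes1, Pmepa1, Rgs1, Dock8, Prickle2, Psat1, Plau, Apobec1, Chn2 and Trpc1. Rgs1, a regulator of G protein signalling, had 134, 55 and 14.3 with M/M cytokines, 368, 95.5 and 43.9 with Th2 cytokines and 137, 19 and 26.3 in control cultures, and the M/M and Th2 arrays overlapped between experiments.

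The labelled culture was checked by cell markers. Astrocyte markers (10 of 11 measured) summed to 9989 to 14079.9 with M/M and 7254 to 14202 with Th2 cytokines, and oligodendrocyte and myelin markers (8 of 14) to 8009 to 16710.1 with M/M and 6610.1 to 16698 with Th2. Microglia and macrophage markers (12 of 19) summed to 11360.5 to 16073 with M/M and 8920.1 to 13379.7 with Th2, at 1.2, 1.27 and 1.38 times in the 3 pairs. Without Cd14 the ratios of the sums were 1.02, 1.04 and 1.45, and the 12 markers had median log2 ratios of -0.03, -0.05 and 0.45, with 8 below 0 in pair 1 and 6 in pair 2. Cd14, the coreceptor for endotoxin and one of these markers, had 3433, 2735 and 2185 with M/M cytokines and 941, 648 and 1991 with Th2 cytokines, with limma's adjusted p = 0.0711 for experiments 1 and 2. Precursor markers (5 of 8) summed to 1259.9 to 2012 with M/M and 1100.4 to 1921 with Th2, and fibroblast markers (7 of 8) to 1340.0 to 3581 with M/M and 934 to 3400.5 with Th2. Sums for endothelial (4 of 8), neuronal (7 of 11) and T cell markers (7 of 9) were at most 719 on any of the 6 arrays, and Cd3d was at 2.91, 9.61 and 3.5 with M/M cytokines and 3.28, 5.03 and 2.6 with Th2 cytokines. The part of these sums in the results was not tested.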

How the data were processed

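Signals of 12 rat arrays were used, and the 6 of M/M-treated and Th2-treated cultures were compared. The deposited values are linear intensity signals per probe set, which the authors calculated with dChip v1.2. Its settings and a scaling between arrays are not given in the sources used here. The tests covered 8740 probe sets, without the 59 controls of the array. A floor of 1 was applied before log2, without rescaling, since many signals of experiments 1 and 2 equal 1 while experiment 3 goes lower. M/M was compared with Th2 by limma (version 3.58.1, R 4.3.3) over all 12 arrays, with experiment as a block and a variance prior following mean signal (degrees of freedom: 6 residual and 6.69 prior, or 3 and 3.07 in experiments 1 and 2), and Benjamini-Hochberg adjustment over all probe sets (threshold 0.05). The code shared by array titles pairs the cultures, and the methods describe 3 separate experiments. The deviations of M/M and Th2 arrays from their groups correlated within experiments at 0.58, 0.62 and 0.72. Between experiments, arrays of different groups correlated from -0.63 to 0.36. These values were positive between experiments 1 and 2 and negative between either and experiment 3, so they partly reflect that experiment 3 stood apart. The number of arrays limits the precision, and fits were tested on simulated data.

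A single gene symbol was given for 7006 probe sets, more than 1 for 308 and none for 1426. Symbols come from the array's annotation, checked against RefSeq. Named genes were the 10 largest mean ratios each way among called probe sets with 1 sign in 3 pairs, filled by unadjusted p in the upper signal range, the 10 largest each way over pairs 1 and 2 that passed 2-fold in both, up to 4 genes of each list by p, and the receptors. Lists take each gene by its brightest probe set. Members and lists were chosen with earlier results of these data known. The use of experiments 1 and 2 as a result of its own, Cd74 and the other label checks, the kappaB consensus and the marker sum without Cd14 were chosen after seeing the data. Alternatives were other blocks, scalings, floors and filters, the criteria of the methods, and each replicate left out.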

Additional observations from a re-analysis of the deposited data

How the results depend on the processing

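With all 3 experiments, the screening criteria of the methods, applied to M/M against Th2 without pairing, gave 167 higher and 75 lower. In contrast, limma called 0 probe sets either way under every block, scaling, floor, offset, filter and variance setting tried. Leaving out replicates gave 0 to 21 higher and 0 to 2 lower, the most without replicate 3, and 12 higher without the Th2 array of experiment 3 alone. In experiments 1 and 2 (21 higher, 2 lower) there were 0 and 0 without the replicate block, 4 and 1 with a random replicate block, 3 and 0 on the M/M and Th2 arrays only, 45 and 7 with arrays centred, 36 and 6 after quantile normalization, 4 lower with dim probe sets left out, 3 and 0 without the variance trend, and 184 and 129 by the screening criteria. Leaving out 1 M/M or Th2 array there gave 0 to 2 higher and 0 lower.

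Over 2-fold in all 3 pairs were 48 higher and 8 lower. These became 25 and 16 with arrays centred, 26 higher after quantile normalization, 14 and 0 with an offset of 16, and 26 and 0 with dim probe sets left out. Counts over the remaining 2 pairs were 121 to 156 higher and 29 to 80 lower. In pairs 1 and 2 (156 higher, 80 lower) there were 76 and 6 with the offset, 102 and 14 with dim probe sets left out, and 51 lower after quantile normalization. None of the genes named by rank over 3 pairs or over pairs 1 and 2 changed the direction of its fitted ratio under these settings. Their choice largely set this beforehand. The first were taken for 1 sign in 3 pairs, the second for large ratios in pairs 1 and 2. In pair 3 itself Ccl20, Il1b, Cxcl2, Cxcl6, Mmp3, Il1a and Ccl3 were below 0, and Cxcr4, Vsir, Arl11 and P2ry12 above 0. Medians of several gene lists that lay near 0 over the 3 pairs changed sign, and in pair 3 alone Sdc4 and Vsir were below 0 with arrays centred. The cause of these changes was not tested. The correlation of pairs 1 and 2 was 0.31 over all probe sets and 0.62 with the offset.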
